A study of Mus musculus with 451 samples.

Results

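Collagen genes whose products do not build the main fibrils of tendon were followed through 451 single cells. The 10 members were chosen by name, out of 48795 gene symbols in the count table, and each of the 10 was found there with reads: Col6a1, Col6a2, Col6a3, Col8a1, Col12a1, Col14a1, Col15a1, Col16a1, Col4a1 and Col4a2. The cells came from tail tendons of C57BL/6 mice aged 4 weeks and were captured one by one on a Fluidigm C1 high-throughput chip, 227 cells from wild-type (WT) mice and 224 from mice lacking the transcription factor Mohawk (Mkx-/-). Neither an animal nor a chip is named in the labels. Each genotype was therefore 1 sample, no difference below was tested, and a difference between the mice or chips used cannot be told apart from one of genotype. Error is given as the spread over cells and as exact 95% intervals, which cover counting error of reads only.

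The mature tendon fibril is made mostly of type I collagen, and the genes followed here encode molecules that lie on it, between fibrils or around cells. Collagen VI is assembled from the products of Col6a1, Col6a2 and Col6a3 into beaded microfilaments of the matrix next to the cell. Collagen XII, XIV and XVI (Col12a1, Col14a1, Col16a1) are fibril-associated collagens, which sit on fibrils through interrupted triple helices. Col8a1 encodes a chain of the short, network-forming collagen VIII, Col15a1 encodes a collagen of the zone between basement membrane and fibrils, and Col4a1 with Col4a2 gives the network-forming collagen IV of basement membranes.

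Cells were called tenocyte-like where the mean of log2(CPM + 1) over Tnmd and Fmod, 2 genes of differentiated tendon cells, was at least 10. CPM is the count of a gene per 1000000 reads of the cell or of the summed cells. This gave 78 WT and 84 Mkx-/- tenocyte-like cells, and the rest are called other cells below. A total of 9 cells had a score within 1 of the cut. The cut did not use 9 of the tenocyte markers, among them Col1a1, Scx and Thbs4. They summed to 305996 CPM in WT and 221645 CPM in Mkx-/- tenocyte-like cells, against 26582 and 32639 CPM in the other cells. Most of the WT tenocyte-like sum came from Col1a2 (153923 CPM), Col1a1 (107594 CPM) and Sparc (39691 CPM). The study named its tenocytes by these genes, among others, on these samples, so the sums are no independent evidence for the name. Each other cell was put on the side of its higher marker mean, Cd55 and Scara5 (94 WT and 88 Mkx-/- cells) or Serpine2, Itm2a and Myoc (55 and 52 cells). The median depth was 81693 reads in WT and 72897 in Mkx-/- tenocyte-like cells and 41921 and 46389 in the other cells, and the targeted gene Mkx had 68.1 CPM in tenocyte-like cells of WT and 28.9 CPM in those of Mkx-/- mice, where reads from outside the deleted stretch cannot be told from reads of an intact transcript. Keratinocyte markers were near 0, and the endothelial, mural, Schwann and immune marker lists summed to at most 98.2, 260.2, 213.5 and 193.7 CPM in any class of either genotype. Some sums were higher on the sides of the other cells. The mural list summed to 342.3 CPM in WT and 321.7 in Mkx-/- cells on the Serpine2, Itm2a and Myoc side. On the Cd55 and Scara5 side it summed to 221.9 and 168.03 CPM. The immune list reached 348.6 CPM in Mkx-/- cells of the former side, 78.7% of it in 1 cell. The endothelial list reached 120.96 CPM in WT cells of the latter side. The part of these lists in the side levels of the members was not tested. The 5 chondrocyte markers moved with the class, at 568.9 and 401.2 CPM in WT and Mkx-/- tenocyte-like cells and 49.5 and 38.01 CPM in the other cells, with Col9a1 at 0 in 3 of these 4 groups, and their part in the class ratios was not tested.

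The promoters of 8 members were held by the RefSeq table of GRCm38.p6, and none was used for Col12a1 and Col14a1. In that annotation Col6a1 and Col6a2 lie on chromosome 10, Col6a3 on 1, Col8a1 on 16, Col12a1 on 9, Col14a1 on 15, Col15a1 and Col16a1 on 4 and the collagen IV genes on 8. The 250 bases before the start are printed for Col8a1, the member with the largest ratio between genotypes, and for Col6a1, a member whose ratio in tenocyte-like cells was close to 0. They span chr16:57754738-57754987 and chr10:76726045-76726294, both on the minus strand and both outside the annotated transcripts of their gene. Capitals mark the letters CANNTG (the E-box, read the same on both strands) and GGGCGG on either strand, so CCGCCC is the latter on the other strand.
Col8a1: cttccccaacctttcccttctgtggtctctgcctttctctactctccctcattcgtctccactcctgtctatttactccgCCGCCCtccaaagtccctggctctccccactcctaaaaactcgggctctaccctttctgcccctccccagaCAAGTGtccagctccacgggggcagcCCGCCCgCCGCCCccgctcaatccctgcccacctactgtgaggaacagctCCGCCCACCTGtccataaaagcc
Col6a1: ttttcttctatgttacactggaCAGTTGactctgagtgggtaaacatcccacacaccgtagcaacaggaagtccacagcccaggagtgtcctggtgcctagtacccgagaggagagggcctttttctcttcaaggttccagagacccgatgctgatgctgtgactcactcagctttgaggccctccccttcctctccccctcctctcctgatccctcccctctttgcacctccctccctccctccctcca

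The Col8a1 stretch held 4 GGGCGG and 2 CANNTG matches, of which 1 pair overlapped, and the Col6a1 stretch held 1 CANNTG match and no GGGCGG. Over 32851 windows of the same length, 32.7% held GGGCGG and 66.2% held CANNTG. Neither stretch held TATAAA or CCAAT, which were in 12.4% and 33.8% of windows. These matches describe letters and are not sites. Col4a1 and Col4a2 lie head to head on mouse chromosome 8, with their RefSeq starts 21 bases apart on opposite strands. The Col4a1 start (11312826, minus strand) lies inside the annotated span of Col4a2. The Col4a2 start (11312805, plus strand) lies inside that of Col4a1, so the genes overlap there and no gap parts them. Their windows have 78 of 300 bases in common.

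**Figure D1:**
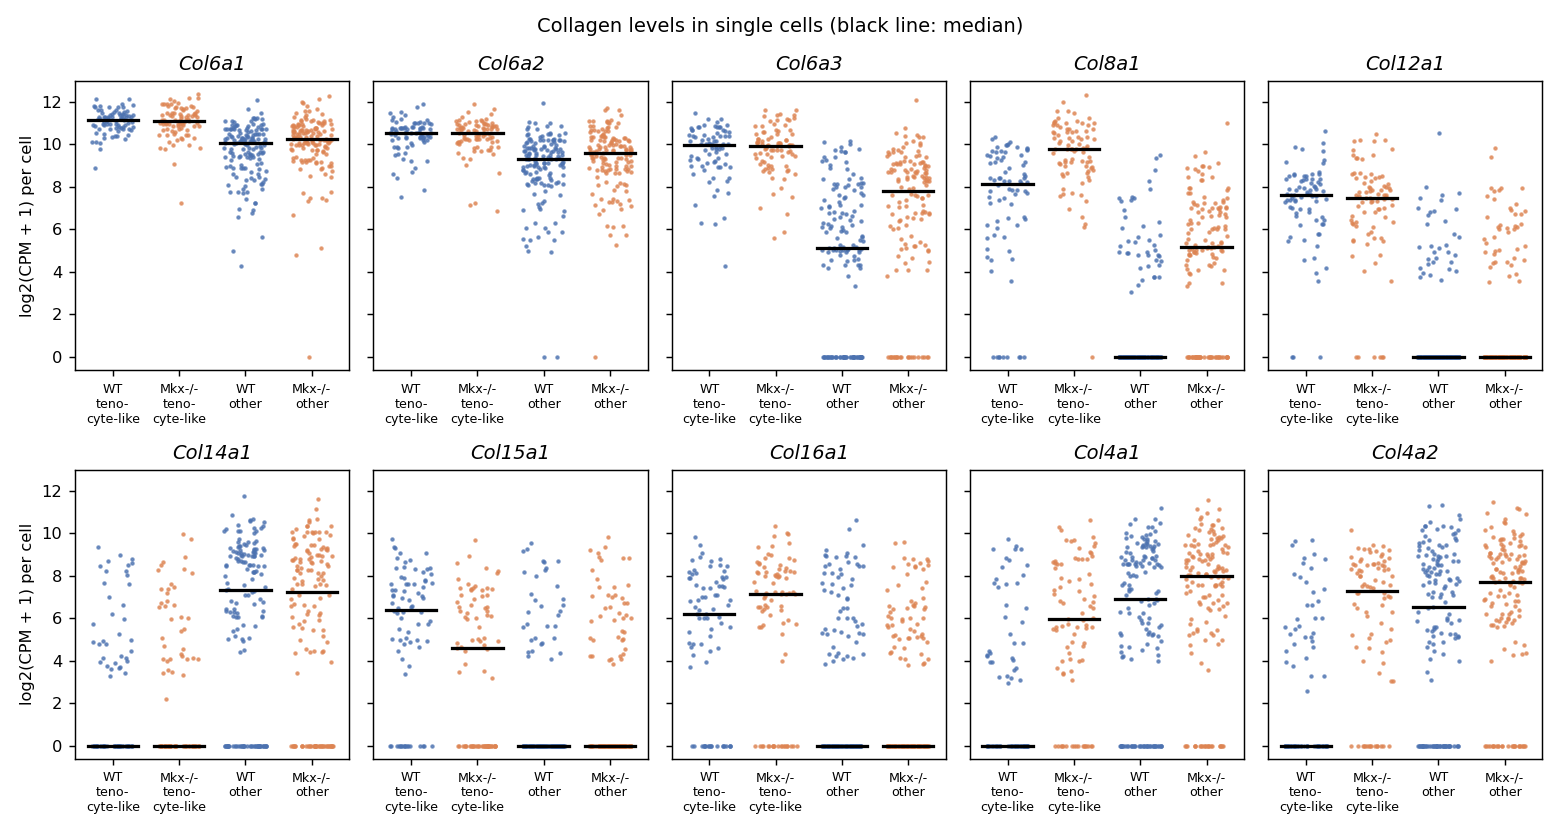
Level of each of the 10 collagen genes in every cell, as log2(CPM + 1) on the vertical axis, for WT (blue) and Mkx-/- (orange) cells of the tenocyte-like and other classes, each dot a cell and the black line the median. Col6a1 and Col6a2 were read in nearly every cell, Col8a1 was shifted upward in Mkx-/- cells of both classes, and Col14a1 was at 0 in most tenocyte-like cells.

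Before any comparison of genotype, the classes differed in most of the members. In WT cells 6 of the 10 genes were higher by 1.5-fold or more in tenocyte-like than in other cells and 3 were lower, beside 9.73% of 8917 genes higher and 53.9% lower by the same rule. In Mkx-/- cells 6 were again higher and 3 lower, beside 10.4% and 41.5% of 9040 genes. The members' median log2 ratio was 1.08 in WT and 0.70 in Mkx-/- cells, where that of all genes was -0.65 and -0.43. The WT count of 6 higher became 7 in 7 of 12 alternatives, as the Col16a1 gap of 0.49 came to between 0.59 and 1.14. Scaling by TMM moved the median of all genes to -0.01 in both genotypes, with 46.8% of the calls higher in WT cells in place of 15.3%, and 47.3% in place of 20.1% in Mkx-/- cells.

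Col6a3, Col8a1 and Col12a1 had the widest gaps toward tenocyte-like cells. Col12a1 encodes the fibril-associated collagen of tendon and ligament that also lies in the matrix between fibrils. In WT tenocyte-like cells it ran from 0 to 1611 CPM per cell with a median of 192.7, and in WT other cells from 0 to 1496 with a median of 0. Nearly all tenocyte-like cells (96.2%) had a read of it, against 22.8% of the other cells. The log2 ratio of the classes was 3.36 (3.13 to 3.61) for WT and 2.597 (2.42 to 2.78) for Mkx-/- cells. The same ratio was 3.86 for Col8a1 in WT, 3.498 in Mkx-/- cells, and 2.93 and 1.70 for Col6a3. The ranges of single cells overlapped between classes for each of these 3 genes.

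Col14a1 went the other way. Its product, collagen XIV, binds fibrils in developing tendon and in connective tissue generally. WT tenocyte-like cells ran from 0 to 657 CPM with a median of 0, and WT other cells from 0 to 3461 with a median of 157.99. The Mkx-/- classes had the same order, with medians of 0 and 148.4 CPM and highest cells at 993 and 3083. The log2 ratio of tenocyte-like to other cells was -2.40 (-2.54 to -2.25) for WT and -2.11 (-2.25 to -1.98) for Mkx-/- cells, and 46.2% of WT tenocyte-like cells had a read against 71.8% of WT other cells. Among the other cells it was higher on the Cd55 and Scara5 side, at 442 CPM against 225.2 in WT and 445 against 165.01 in Mkx-/- cells.

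Col4a1 and Col4a2, the basement membrane chains, were also lower in tenocyte-like cells. In WT the log2 ratio was -1.52 for Col4a1 and -1.36 for Col4a2, and in Mkx-/- cells -0.90 and -0.72. Under TMM scaling the Mkx-/- values were -0.47 and -0.29, short of 1.5-fold. Within the other cells both genes, together with Col6a3 and Col15a1, were higher on the Serpine2, Itm2a and Myoc side in either genotype. The WT levels there were 472 CPM for Col4a1, 533.5 for Col4a2, 268 for Col6a3 and 80.4 for Col15a1, against 211.8, 173.4, 76 and 16.1 CPM on the Cd55 and Scara5 side.

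**Figure D2:**
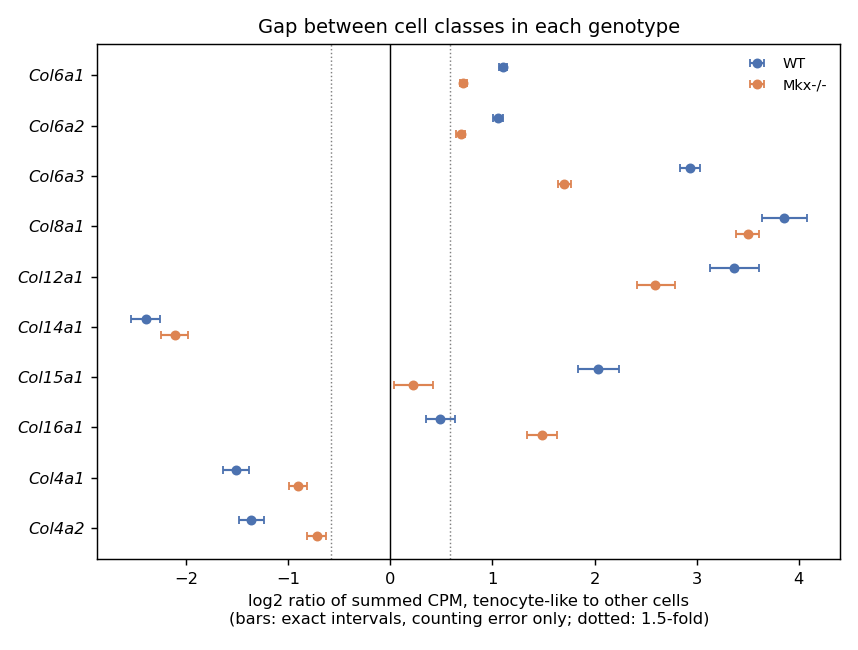
Log2 ratio of the summed CPM in tenocyte-like cells to that in other cells, on the horizontal axis, for each member in WT (blue) and Mkx-/- (orange) cells, with exact 95% intervals for counting error and dotted lines at 1.5-fold. The gap of Col15a1 was 2.03 in WT cells and 0.22 in Mkx-/- cells, that of Col16a1 0.49 and 1.48.

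The main contrast of the study was that of genotype. Over all cells 2 of the 10 members were higher by 1.5-fold or more in Mkx-/- cells, Col8a1 and Col4a1, beside 16% of 10963 genes, and 0 were lower, beside 13.1%. In tenocyte-like cells 4 were higher (Col8a1, Col16a1, Col4a1 and Col4a2), beside 27.9% of 8368 genes, and 1 was lower (Col15a1), beside 13.2%. The other cells had 4 that were higher (Col6a3, Col8a1, Col12a1 and Col15a1), beside 15.9% of 9332 genes, and 0 were lower, beside 14.8%. The members' median log2 ratio was 0.24, 0.16 and 0.45 in these 3 comparisons, and that of all genes 0.05, 0.21 and 0.01. TMM scaling took the tenocyte-like median of all genes from 0.21 to 0.00, and 51% of the calls were then higher in place of 67.9%. The tenocyte markers named above, at 305996 and 221645 CPM, differed between the genotypes in the same cells. A total without Col1a1, Col1a2 and Sparc, which are among these markers, gave a tenocyte-like median of all genes of 0.04. With that total 53.9% of the calls were higher, and the Col16a1 ratio was 0.42. The part of the remaining markers in these ratios was not tested. The comparison over all cells contains the cells of both classes and is not separate from them.

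Col8a1 had the largest ratio of the members in every one of these comparisons. In tenocyte-like cells WT ran from 0 to 1324 CPM per cell with a median of 279, and Mkx-/- from 0 to 5152 with a median of 896. In other cells WT ran from 0 to 714 with a median of 0, and Mkx-/- from 0 to 2081 with a median of 34.5. The Mkx-/- medians were higher in both classes, while the ranges of single cells overlapped. Summed levels were 392 and 1155 CPM in tenocyte-like cells, a log2 ratio of 1.56 (1.49 to 1.62). In other cells they were 27.05 and 102.2 CPM, a log2 ratio of 1.92 (1.68 to 2.16). Without cells holding reads of 2 or more endothelial or mural markers the ratios were 1.31 and 1.32, below these intervals. With every cell thinned to 28000 reads, which left out 1 WT and 1 Mkx-/- tenocyte-like cell and 22 and 17 other cells, 24.4% (17.2 to 32.8) of WT and 60.2% (50.9 to 68.9) of Mkx-/- other cells had a read, where the unthinned shares were 28.2% and 71.4%. The thinned shares in tenocyte-like cells were 81.8% and 98.8%, and the unthinned ones 88.5% and 98.8%. The ratio held its direction on both sides of the other cells. It was 1.5 (1.23 to 1.77) on the Cd55 and Scara5 side and 3.04 (2.51 to 3.61) on the Serpine2, Itm2a and Myoc side. On the latter side the WT value rested on 32 reads, and 1 Mkx-/- cell held 21.5% of the Mkx-/- reads.

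Col8a2 encodes the partner chain of Col8a1 in collagen VIII. Its tenocyte-like levels were 54.9 CPM in WT and 121.1 CPM in Mkx-/- mice, which is a log2 ratio of 1.14, and its levels in the other cells were 13.4 and 27.5 CPM, which is 1.04. Both collagen VIII genes were thus higher in Mkx-/- cells of either class. Col8a2 was also higher in tenocyte-like than in other cells, by 2.04 on the log2 scale in WT and 2.14 in Mkx-/- cells.

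The collagen IV chains were higher in Mkx-/- tenocyte-like cells. Col4a1 ran from 0 to 839 CPM with a median of 0 in WT and from 0 to 1568 with a median of 60.5 in Mkx-/- cells, and Col4a2 from 0 to 825 with a median of 0 and from 0 to 1129 with a median of 155.9. For both genes the WT median cell had no read, while most Mkx-/- cells did. The log2 ratios of summed levels were 1.10 (0.97 to 1.23) for Col4a1 and 1.01 (0.88 to 1.14) for Col4a2. After thinning, 32.5% (22.2 to 44.1) of WT cells had a read of either gene taken singly, against 66.3% (55.1 to 76.3) of Mkx-/- cells for Col4a1 and 77.1% (66.6 to 85.6) for Col4a2. The unthinned shares were 47.4% and 79.8% for Col4a1 and 46.2% and 82.1% for Col4a2. Among the other cells, where more WT cells had a read, the log2 ratios were 0.48 (0.40 to 0.57) and 0.37 (0.29 to 0.45).

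A single WT tenocyte-like cell held 33.5% of the Col4a1 reads and 37.4% of the Col4a2 reads of its group. It was the deepest cell of the series, with 335813 reads and 9924 genes, and had reads of 7 of the 8 endothelial markers (Pecam1, Cdh5, Kdr and others) and of 14 of the 16 endothelial and mural markers together. Without it the WT levels were 72.3 CPM for Col4a1 and 74.01 for Col4a2, in place of 103.1 and 112.2. Leaving out this cell and 1 Mkx-/- other cell that also had reads of at least 3 endothelial markers, a choice made after seeing the data, gave a tenocyte-like log2 ratio of 1.61 for both genes. Whether its well held more than 1 cell was not tested. The 8 endothelial markers summed to 86.1 CPM in WT tenocyte-like cells, 76.8% of it in that cell, and to 10.9 CPM in Mkx-/- tenocyte-like cells, where Cldn5, Tie1 and Egfl7 were at 0. They summed to 98.2 CPM in WT other cells and to 52.8 CPM in Mkx-/- other cells.

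On the Cd55 and Scara5 side of the other cells, Col4a1 and Col4a2 had log2 ratios of 0.78 (0.67 to 0.90) and 0.66 (0.53 to 0.79). On the Serpine2, Itm2a and Myoc side the values were 0.07 (-0.05 to 0.19) and 0.03 (-0.08 to 0.14), and their intervals held 0. Levels were high on that side in both genotypes, at 472 and 495 CPM for Col4a1 and 533.5 and 544.5 CPM for Col4a2. The difference between the sides was not tested.

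Collagen VI differed by chain. In tenocyte-like cells the 3 genes were read in 100% of cells of either genotype, and their log2 ratios were 0.02 (-0.01 to 0.05) for Col6a1, 0.06 (0.02 to 0.10) for Col6a2 and 0.17 (0.12 to 0.22) for Col6a3. These small ratios changed sign under TMM scaling, to -0.19, -0.15 and -0.04, so they have no firm direction. Outside that class Col6a1 and Col6a2 had log2 ratios of 0.40 (0.36 to 0.45) and 0.42 (0.37 to 0.47). Col6a3 had a log2 ratio of 1.40 (1.29 to 1.51) there. The Col6a2 value was 0.12 (0.05 to 0.19) on the Cd55 and Scara5 side and 0.86 (0.77 to 0.95), past 1.5-fold, on the Serpine2, Itm2a and Myoc side, while that of Col6a1 was 0.36 and 0.42.

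Col6a3 encodes the longest collagen VI chain. In WT other cells it ran from 0 to 1147 CPM with a median of 34.04, and in Mkx-/- other cells from 0 to 4413 with a median of 221.6. Thinned to one depth, 64.6% (55.6 to 72.8) of WT and 78.9% (70.6 to 85.7) of Mkx-/- other cells had a read, and the unthinned shares were 68.5% and 84.3%. The difference was there on both sides, at 1.66 (1.49 to 1.84) on the Cd55 and Scara5 side and 1.10 (0.96 to 1.24) on the Serpine2, Itm2a and Myoc side. As a share of all collagen VI reads, Col6a3 took 21.7% in WT and 23.4% in Mkx-/- tenocyte-like cells and 7.12% and 13.2% in the other cells. The share was 4.19% in WT and 10.3% in Mkx-/- cells on the Cd55 and Scara5 side, and 12.4% and 16.7% on the other side. In both genotypes, then, the share was lowest on the Cd55 and Scara5 side and highest in tenocyte-like cells. All 3 chains were read in the same cell in 67.8% of WT and 84.3% of Mkx-/- other cells.

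The chains of collagen IV were read in nearly equal numbers in tenocyte-like cells, and their proportion differed between the sides of the other cells. Col4a1 took 47.9% of the collagen IV reads in WT and 49.4% in Mkx-/- tenocyte-like cells and 50.6% and 52.5% in the other cells. On the Cd55 and Scara5 side its share was 54.99% (52.7 to 57.3) for WT and 57.1% (55.3 to 58.96) for Mkx-/- cells. On the Serpine2, Itm2a and Myoc side it was 46.9% (44.9 to 49.02) and 47.6% (45.7 to 49.6). These intervals treat reads as independent and leave out the spread over cells. On the former side 1 WT cell held 10.5% of the Col4a1 reads, and on the latter 1 Mkx-/- cell held 15.1% of the Col4a2 reads. The difference in share between the sides was not tested. Both chains were read in the same cell in 28.2% of WT and 67.9% of Mkx-/- tenocyte-like cells, and in 55.7% and 72.9% of other cells.

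**Figure D3:**
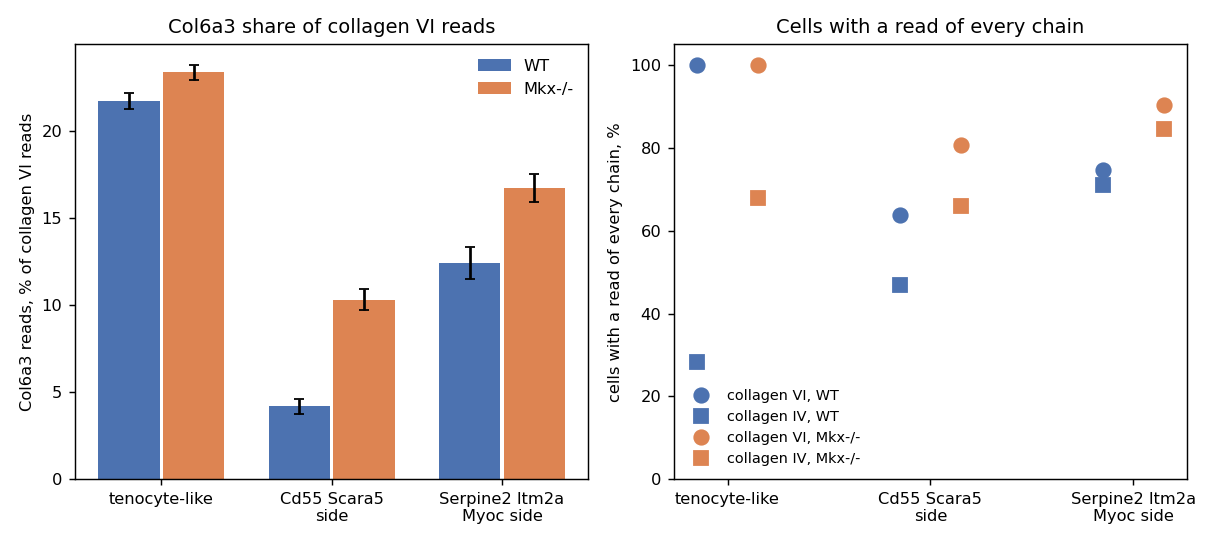
Left, Col6a3 reads as a percent of all collagen VI reads in tenocyte-like cells and on the 2 sides of the other cells, for WT (blue) and Mkx-/- (orange), with exact 95% binomial intervals. Right, the percent of cells with a read of every chain of collagen VI (circles) or collagen IV (squares). The Col6a3 share was 4.19% in WT and 10.3% in Mkx-/- cells on the Cd55 and Scara5 side, and the collagen IV squares were at 28.2% and 67.9% in tenocyte-like cells.

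Col15a1 and Col16a1 had ratios of opposite sign in the 2 classes. Col15a1 in tenocyte-like cells ran from 0 to 833 CPM with a median of 83 in WT and from 0 to 807.5 with a median of 23.5 in Mkx-/- cells. In the other cells the medians were 0 in both genotypes and the highest cells 751 and 890 CPM. The Mkx-/- level was thus lower in tenocyte-like cells, with a log2 ratio of -1.13 (-1.29 to -0.98), and higher in other cells, with a log2 ratio of 0.67 (0.45 to 0.91). The gap between classes was 2.03 in WT and 0.22 in Mkx-/- cells. The latter was past 1.5-fold under median-of-ratios scaling (0.66), under TMM (0.65) and without cells holding reads of 2 or more endothelial or mural markers (1.03). After thinning, 70.1% (58.6 to 80.03) of WT and 48.2% (37.1 to 59.4) of Mkx-/- tenocyte-like cells had a read, and the unthinned shares were 78.2% and 58.3%. In the other cells the thinned shares were 20.5% (13.8 to 28.5) and 27.6% (19.96 to 36.4), with intervals that overlapped, and the unthinned ones 22.1% and 32.1%.

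Col16a1 in tenocyte-like cells ran from 0 to 893 CPM with a median of 72.2 in WT and from 0 to 1288 with a median of 139.3 in Mkx-/- cells. The log2 ratio of 0.59 (0.47 to 0.71) lay at the 1.5-fold line, and the ratio was 0.38 under TMM scaling. The medians in the other cells were 0 and the highest cells 1583 and 755.5 CPM, with a log2 ratio of -0.41 (-0.57 to -0.24). It was -0.63 (-0.85 to -0.42) on the Cd55 and Scara5 side and -0.03 (-0.31 to 0.25) on the Serpine2, Itm2a and Myoc side. The share of cells with a read did not follow the summed level there: 39.6% of WT and 44.3% of Mkx-/- other cells had a read, and 36.2% and 42.3% after thinning. Opposite signs, each beyond its own interval, were also found in 19.6% of the 7849 genes with enough reads in both classes. The difference between the classes was not tested for either gene.

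The fibril-associated collagens XII and XIV differed little between genotypes in tenocyte-like cells, with log2 ratios of 0.05 (-0.04 to 0.15) for Col12a1 and 0.16 (-0.02 to 0.34) for Col14a1, which under TMM scaling were -0.16 and -0.05. In the other cells Col12a1 had a log2 ratio of 0.82 (0.54 to 1.11) from levels of 23.1 and 40.8 CPM, and 1 WT cell held 34.6% of the WT reads and 1 Mkx-/- cell 25.5% of the Mkx-/- reads. It was read in 22.8% of WT and 32.1% of Mkx-/- other cells, and in 19.7% (13.2 to 27.7) and 26% (18.5 to 34.7) after thinning. The ratio was 1.71 (1.26 to 2.19) on the Serpine2, Itm2a and Myoc side and -0.08 (-0.49 to 0.32) on the Cd55 and Scara5 side. On that side 1 WT cell held 50% and 1 Mkx-/- cell 40.2% of the reads of its genotype. The ratio was 0.91 without that WT cell, -0.81 without that Mkx-/- cell and 0.18 without both, a choice made after seeing the data. On the Serpine2, Itm2a and Myoc side 1 Mkx-/- cell held 38.9% and 1 WT cell 28% of the reads, and the ratio was 1.05 without the former, 2.15 without the latter and 1.48 without both. Col14a1 in the other cells had a log2 ratio of -0.12 (-0.20 to -0.04), with medians of 157.99 and 148.4 CPM.

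**Figure D4:**
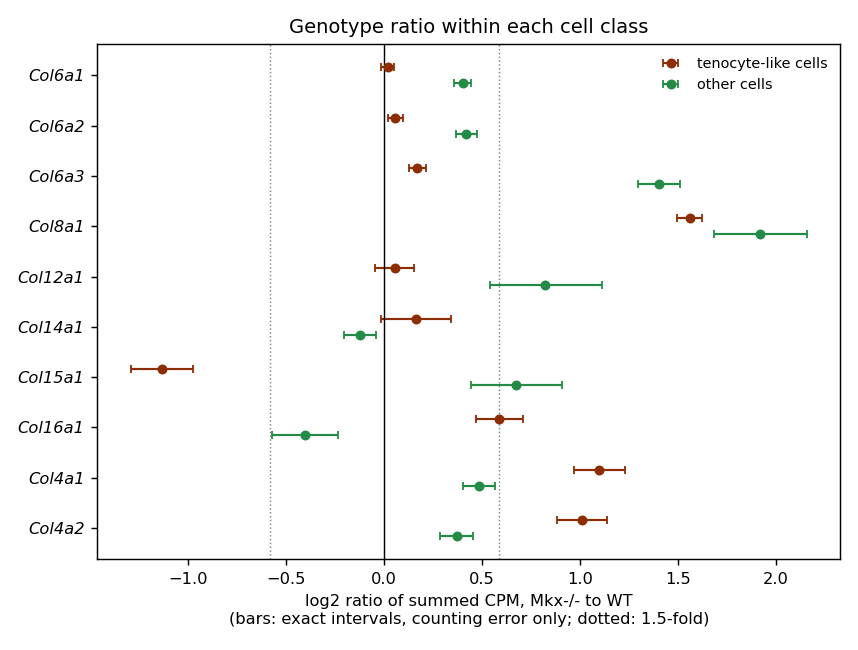
Log2 ratio of the summed CPM in Mkx-/- cells to that in WT cells, on the horizontal axis, for each member in tenocyte-like (brown) and other (green) cells, with exact 95% intervals for counting error and dotted lines at 1.5-fold. Col8a1 lay beyond 1.5-fold in both classes, at 1.56 and 1.92, Col6a3 only in other cells, at 1.40, and Col15a1 lay at -1.13 in tenocyte-like and 0.67 in other cells.

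The other genes of these networks were described by lists. Of the 22 partners and receptors of collagen VI and the fibril-associated collagens, 17 had at least 100 reads in tenocyte-like cells, and 9 were higher in Mkx-/- cells and 0 lower, beside the 27.9% and 13.2% of all genes given above. The list holds Comp, which the study chose on these samples, so the count is no independent evidence. Matn3, a matrilin of the matrix, had a log2 ratio of 2.78 and Bgn, the small proteoglycan biglycan, one of 2.18. The lowest values were -0.37 for Matn2 and -0.14 for Dcn, which encodes decorin, and the list's median was 0.82. Among the other cells 3 of 16 were higher and 1 lower, beside 15.9% and 14.8% of all genes, with Tnc (tenascin C) at 2.30 and Itga1 (a collagen-binding integrin chain) at 1.49.

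Of the 21 basement membrane partners, 14 could be counted between the WT classes, and 10 were lower and 1 higher in tenocyte-like cells, beside 53.9% and 9.73% of all genes. In Mkx-/- cells 10 of 13 were lower and 2 higher, beside 41.5% and 10.4%. The laminin chains Lama4 and Lamb1 had log2 ratios of -2.77 and -2.26 in WT and -2.05 and -2.10 in Mkx-/- cells, while Sparc, which binds collagen, was at 2.21 and 1.72. The list's median was -1.42 in WT and -1.11 in Mkx-/- cells, beside the -0.65 and -0.43 of all genes. Between genotypes 6 of 14 were higher and 0 lower in tenocyte-like cells, beside 27.9% and 13.2% of all genes, with Lama3 at 2.33 and Smoc2 at 1.62. The Lama3 value rested on 99 Mkx-/- and 18 WT reads. Outside that class 2 of 14 were higher and 2 lower, beside 15.9% and 14.8%, with Smoc2 at 0.72 and Nid1 at -0.67.

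Among the fibrillar collagens, whose products build the fibril itself, 4 of 10 were higher and 2 lower in Mkx-/- tenocyte-like cells, beside 27.9% and 13.2% of all genes. Col5a1 was at 1.96 and Col27a1 at 1.79, while Col11a2 was at -1.34 and Col5a3 at -0.77. Among the other cells 2 of 10 were higher and 1 lower, beside 15.9% and 14.8%, with Col11a1 at 1.005 and Col24a1 at -1.10. Of the remaining non-fibrillar collagens, 23 of the 24 listed were in the table and no more than 4 had 100 reads in any comparison. Besides Col8a2, Col18a1 (the endostatin-bearing collagen XVIII) was at 0.64 in tenocyte-like and 0.16 in other cells, and Col4a4 was at -2.22 in the other cells.

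Members of one molecule varied together weakly from cell to cell, though more than any other pair of members. Within the 4 groups of genotype and class, Pearson's r of log2(CPM + 1) between Col4a1 and Col4a2 averaged 0.32 (range over the groups 0.26 to 0.43). That between Col6a1 and Col6a2 averaged 0.296 (0.11 to 0.50). For Col6a3 it averaged 0.25 (0.03 to 0.36) with Col6a1 and 0.20 (0.12 to 0.32) with Col6a2. The next highest mean among pairs of members was 0.175, for Col6a3 with Col15a1. How far cells without a read held these values down was not tested. These cells share their library preparation and depth range, and the correlations are descriptions. Among 5125 genes read in at least 20% of cells, those most like Col14a1 were Fbn1 (fibrillin 1) at 0.52 (0.47 to 0.58 over the 4 groups), Fstl1 at 0.52 (0.39 to 0.64) and Efemp1 at 0.45 (0.39 to 0.55). Col6a1 was most like Sparc at 0.36 (0.02 to 0.60), Pcolce, an enhancer of procollagen processing, at 0.35 (0.06 to 0.53) and Col1a2 at 0.35 (-0.03 to 0.57), each near 0 in at least 1 group. Apart from each other, the collagen IV genes were most like Gsn, the gene of the actin-severing protein gelsolin, at 0.33 (0.25 to 0.44) for Col4a1 and 0.35 (0.26 to 0.46) for Col4a2. No gene reached a mean of 0.3 with Col6a2, Col6a3, Col8a1, Col12a1, Col15a1 or Col16a1.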

How the data were processed

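Single tail tendon cells were captured with the Fluidigm C1 high-throughput chip, with 227 WT and 224 Mkx-/- cells in the table. The values deposited by the authors are raw counts of reads for each gene symbol in each cell. Per their methods, reads were filtered with AfterQC, trimmed with NGSQCToolkit, placed on mm9 with bowtie2 and counted with featureCounts, whereas the submitters' processing notes name mm10. Of the 48795 symbols, 28993 were in an mm9 annotation and 34106 in RefSeq GRCm38.p6, so coordinates are given only for RefSeq promoters, on GRCm38.p6. The strand setting, the handling of multiply placed reads and the annotation were not given in the sources used here. The counts are reads and not molecules, cells had passed the authors' filter of wells, and no cell was removed or doublet caller run here. The study reports more cells passing its quality control than the table holds, and it does not account for the difference.

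Depth ran from 13076 to 335813 reads per cell. Counts were summed over the cells of a group and divided by the summed total to give CPM. A ratio is the log2 of 2 such values with an exact conditional binomial interval, a level has an exact Poisson interval, and a share of cells or reads has a Clopper-Pearson interval, all at 95%. With 1 sample per genotype there was no test. A gene was counted as higher or lower past 1.5-fold where it had at least 100 reads over the cells compared, and a sum of 0 was set to 3 reads. The alternatives were median-of-ratios and TMM scaling (edgeR 4.0.16), a total without Col1a1, Col1a2 and Sparc, the mean of per-cell CPM, thinning to 28000 reads, filters on cells, the class cut at 9 or 11, omission of the leading cell, and no minimum of reads. The calculations were run in Python 3.11.15 with scipy 1.17.1 and were tested on simulated data. The simulated cells of a group shared the same profile and differed only in depth and counting error. The simulation therefore cannot show how the intervals behave where cells vary more than that.

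All 10 members were named, with the 2 highest and 2 lowest genes of each list that had at least 100 reads, and for each member up to 3 genes of highest mean correlation where that mean was at least 0.3. 1 gene that this rule names is not reported here. The members and lists were chosen with earlier results of these data known.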

Additional observations from a re-analysis of the deposited data

Results flagged for a closer look

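Col15a1 moved in opposite directions in the 2 cell classes, and that is what marked it for a closer look. Its log2 ratio of Mkx-/- to WT was -1.13 in tenocyte-like cells and 0.67 in other cells. Across the alternative settings the tenocyte-like value lay between -1.34 and -0.79 and the other-cell value between 0.41 and 0.72. Col16a1 was marked for the same reason, with 0.59 in tenocyte-like and -0.41 in other cells, where the alternatives gave 0.35 to 0.66 and -1.41 to -0.27. The difference between the classes was not tested for either gene, since each genotype was 1 sample, and opposite signs beyond their intervals were found in 1542 of 7849 genes (19.6%).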

How the results depend on the processing

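Of 50 member ratios, 29 were past 1.5-fold, all 29 kept their sign under every alternative that was run, and 23 stayed past 1.5-fold under each. Counts of members over all cells changed under several of the alternatives. The 2 higher became 1 under median-of-ratios scaling, TMM, the total without Col1a1, Col1a2 and Sparc, and the mean of per-cell CPM, as Col4a1 (0.64) came to between 0.57 and 0.58. They became 3, with Col4a2 (0.55) added, in cells with at least 2500 genes (0.62), without cells holding reads of 2 or more endothelial or mural markers (1.07), without the leading cell of each group (0.60) and without the 2 cells with at least 3 endothelial markers (0.67). The 0 lower became 1 under TMM, the same reduced total, and only cells with at least 2500 genes, as Col15a1 (-0.53) came to between -0.60 and -0.59. In other cells the 4 higher became 2 under the mean of per-cell CPM and under thinning, as Col12a1 came to 0.52 and 0.46 and Col15a1 to 0.46 and 0.49. There the 0 lower became 1 (Col16a1, -1.41) without cells holding reads of 2 or more endothelial or mural markers, which left out 42.3% of WT and 46% of Mkx-/- cells and gave Col4a1 a ratio of 0.83 and Col4a2 one of 0.89. In Mkx-/- cells the 3 members lower in tenocyte-like cells became 1, Col14a1, under median-of-ratios and TMM scaling, with the median of all genes moved from -0.43 to 0.00 or -0.01. The cause of the other changes was not tested. In tenocyte-like cells the Col16a1 ratio of 0.59 was under 1.5-fold in 9 of 12 alternatives. No paired analysis was possible because each genotype was 1 sample and cell numbers do not link cells across genotypes. Low reads limit the side values of Col8a1 and Col12a1, for which as few as 32 and 50 reads were summed. They also limit list genes with few reads, among them Lama3, Col4a4 and Col24a1.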
